A study of Mus musculus with 16 samples.

Results

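The NMDA receptor subunit genes Grin1, Grin2a, Grin2b, Grin2c, Grin2d and Grin3a were followed in the medial prefrontal cortex (mPFC) of adult mice lacking 1 functional copy of Arid1b. The 6 genes were chosen by name, were matched to the table by Ensembl identifier, and are 6 of the 18424 genes listed. Grin3b was not analysed here. All 16 animals were C57BL/6N males at postnatal day 120 (P120), with 4 mice in each of 4 groups. WT-Veh and WT-Flx mice carried an intact Arid1b gene. HT-Veh and HT-Flx mice were Arid1b+/-, with a truncating mutation in exon 5 of every cell. Their dams drank 0.2% saccharin water from P3 to P21, alone in the Veh groups and with 0.1 mg/ml fluoxetine, a serotonin reuptake inhibitor, in the Flx groups. The pups therefore met the drug through milk at a dose per pup that is not stated, and received plain water after weaning. The labels do not say which mice were littermates, so p-values measure the spread between the mice sampled.

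NMDA receptors are glutamate-gated channels that let calcium into neurons when glutamate, a co-agonist and membrane depolarisation coincide. GluN1, the product of Grin1, binds the co-agonist glycine or D-serine and is needed in every receptor, whereas the GluN2 subunits bind glutamate and set how long the channel stays open. In the cortex GluN2B dominates early in life and GluN2A is added as synapses mature, GluN2C is known from astrocytes and cerebellar granule cells, and GluN2D from inhibitory neurons. GluN3A lowers calcium entry and is best known from young, immature synapses.

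The subunits share the third membrane segment, which lines the channel gate. The coding stretch of this segment is shown for 1 member of each subunit class (GluN1, GluN2 and GluN3), because it is a part that the classes have in common, with 24 bases that encode its core in capitals. Sequences are 5′ to 3′ on the coding strand, which is the minus strand for every member, and come from the GENCODE transcripts of GRCm38.
Grin1 chr2:25297190-25297237: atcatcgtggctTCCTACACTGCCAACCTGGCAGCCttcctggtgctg
Grin2c chr11:115253740-115253787: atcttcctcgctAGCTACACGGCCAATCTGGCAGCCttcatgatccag
Grin3a chr4:49770461-49770508: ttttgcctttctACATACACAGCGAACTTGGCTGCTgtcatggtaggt

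Of the 24 core bases, 4 differed between Grin1 and Grin2c, 7 between Grin1 and Grin3a and 8 between Grin2c and Grin3a. Over the aligned bases of the coding sequences of the 6 members, with gaps left out, identity ran from 62.7% between Grin2d and Grin3a to 70.9% between Grin2c and Grin2d. The 4 GluN2 genes also end in a shared short signal that binds the PDZ domains of scaffold proteins such as PSD-95. Their last 24 coding bases are shown because the scaffold proteins of the Dlg family, described further on, bind this end, with the 12 bases before the stop codon in capitals.
Grin2a chr16:9577830-9577853: atgcctagtattGAATCTGATGTC
Grin2b chr6:135732101-135732124: ctttctagtattGAGTCTGATGTC
Grin2c chr11:115249574-115249597: atctccagcctgGAATCAGAAGTG
Grin2d chr7:45832783-45832806: ttctccagcctgGAGTCCGAGGTA

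Values are normalized read counts, and the sequencing depth behind them is unknown. Arid1b itself, the targeted gene, averaged 2368 ± 432 normalized counts (SD, n = 4) among WT-Veh and 2159 ± 233 among WT-Flx mice, against 1795 ± 160 for HT-Veh and 1636 ± 61.0 for HT-Flx. All 7 markers of cortical glutamatergic neurons were listed above 0 in the tissue, with a summed normalized count of 42799 to 62395 per mouse. Some libraries also held markers of the olfactory bulb, which lies in front of the mPFC. The 10 bulb markers summed to 4612 to 24873 per WT-Veh mouse and 5853 to 22818 per WT-Flx mouse, whereas HT-Veh had 5457 to 11211 and HT-Flx 5456 to 7039. Each of the 10 was listed above 0 in some libraries, and Eomes was listed at 0 in its lowest. The median HT minus WT log2 change of the 10 bulb markers was -1.47, and 3 of 10 were lower in HT at a limma unadjusted p under 0.05. The score of the 10 markers, the mean log2(value + 1), was 8.43 to 10.6 in WT-Veh 1, WT-Flx 1, WT-Flx 2, WT-Flx 4 and HT-Veh 4 and 5.68 to 6.57 in the other 11 libraries. A further difference concerned transcript length. The median log2 deviation of the 349 genes other than members with transcripts of at least 10 kb, less that of the 2488 genes with transcripts of at most 2 kb, was -0.76 in WT-Veh 1 and -0.74 in WT-Flx 1, -0.19 in WT-Flx 4, -0.091 in HT-Veh 4 and 0.064 to 0.22 in the other 12 libraries. Both features lay mostly in WT libraries, so the comparisons of HT with WT are also given without some of these libraries or with the bulb score as a covariate.

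Grin1 was the most abundant member per length and Grin2d the least. Divided by the length of the longest protein-coding transcript, the mean of 16 mice was 3553 ± 206 normalized counts per kb for Grin1, 631 ± 158 for Grin2b, 439 ± 85.6 for Grin2a, 299 ± 37.3 for Grin2c, 149 ± 23.6 for Grin3a and 102 ± 15.5 for Grin2d. The order of the means was the same with the union of exons or the coding sequence as the length. Grin1 exceeded Grin2b, and Grin2b exceeded Grin2a, in 16 of 16 mice under each length. Other neighbours were less separate. Grin2a exceeded Grin2c in 14 of 16 mice with the transcript length and 12 of 16 with the exon union. Grin3a exceeded Grin2d in 14 and 10 of 16 mice under these lengths. Of the summed level of the 4 GluN2 genes per kb of longest transcript, Grin2b made up 42.2% ± 5.75 (SD, n = 16), Grin2a 29.7% ± 2.97, Grin2c 21.0% ± 5.45 and Grin2d 7.19% ± 2.10. The choice of length weighed heavily here, because the longest Grin2b transcript spans 24.1 kb and its coding part 4.45 kb. Per kb of coding sequence the share of Grin2b was 62.3% and that of Grin2c 7.76%.

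**Figure D1:**
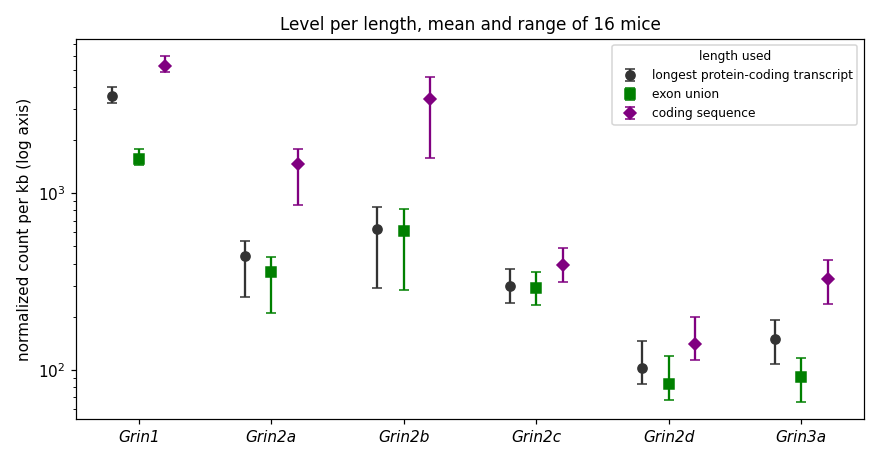
Normalized count per kb of the 6 NMDA receptor genes on a log axis, for 3 definitions of gene length. Symbols are means and bars run from the lowest to the highest of 16 mice. Grin1 is highest under each length, and the ranges of Grin3a and Grin2d overlap for the longest transcript and the exon union but not for the coding sequence.

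The members varied unequally between mice of 1 group. The SD within groups on the log2(value + 1) scale was 0.088 for Grin1, smaller than that of most genes, since 5.67% of 12542 genes had a smaller one. It was 0.16 for Grin3a, 0.19 for Grin2c, 0.20 for Grin2d, 0.32 for Grin2a and 0.42 for Grin2b. The median gene had 0.17, and 96.0% of genes varied less than Grin2b.

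Comparing HT-Veh with WT-Veh asked what Arid1b haploinsufficiency did without the drug, and 0 of the 6 genes passed the limma test at an adjusted p of 0.05, where 0.0178% of all genes tested passed. The groups overlapped for all 6, while 3.84% of all genes had no overlap. In WT-Veh, mice 1 to 4 had Grin3a normalized counts of 807, 1064, 946 and 999. In HT-Veh the values were 1428, 1277, 1363 and 1003. Mice 1 to 3 of HT-Veh lay above every WT-Veh mouse, and HT-Veh 4, the HT library with bulb markers, lay among them. The log2 change was 0.40 (SE 0.12, 95% interval 0.13 to 0.68, limma unadjusted p = 0.00837, adjusted p = 0.899). Grin3a was the only member with an unadjusted p under 0.05 here, against 4.88% of all genes.

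Grin2b, the subunit of early receptors, had normalized counts of 7038, 14849, 14963 and 15546 in WT-Veh. In HT-Veh it had 19566, 20116, 17525 and 12769. A single WT-Veh mouse held less than any other of the 16, and HT-Veh 4 lay below 3 of the 4 WT-Veh mice. The log2 change of 0.46 (SE 0.25, 95% interval -0.088 to 1.02, limma adjusted p = 0.922) became 0.19 without WT-Veh 1. With the bulb score as a covariate Grin2b was the 1 member to pass, at a log2 change of 0.39 and a limma adjusted p of 0.0226. The share of all genes passing in that covariate fit was not counted, so the call has no background beside it. Over all 16 mice the same covariate gave Grin2b 0.21 (SE 0.16, limma adjusted p = 0.932). Without both WT-Veh 1 and HT-Veh 4, the log2 changes were 0.33 for Grin2b (limma adjusted p = 0.0691) and 0.43 for Grin3a (limma adjusted p = 0.0629).

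For Grin2a, the subunit of mature synapses, the normalized counts were 3781, 6698, 6892 and 7338 in WT-Veh. They were 7437, 7316, 7837 and 5478 in HT-Veh. As for Grin2b, the lowest mouse of each group was the one with bulb markers. The log2 change was 0.22 (SE 0.20) with all 8 mice and -0.0039 without WT-Veh 1. The other 3 members changed little. Grin1 differed by a log2 change of -0.044 (SE 0.072, 95% interval -0.20 to 0.12), Grin2c by 0.054 (SE 0.12) and Grin2d by -0.13 (SE 0.11), each with a limma adjusted p of at least 0.922. Without WT-Veh 1 and HT-Veh 4 they had -0.057, 0.062 and -0.062.

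Grin1 averaged 15433 ± 1046 normalized counts (SD, n = 4) for WT-Veh, 14866 ± 609 for WT-Flx, 14958 ± 695 for HT-Veh and 15517 ± 1221 for HT-Flx. Grin2c averaged 1466 ± 211, 1411 ± 219, 1519 ± 195 and 1465 ± 167 in the same order, and its highest mouse, at 1812, was HT-Veh 4. Grin2d averaged 575 ± 78.2, 608 ± 126, 523 ± 22.2 and 514 ± 69.8, with its highest mouse, at 794, in WT-Flx and its lowest, at 452, in HT-Flx. For Grin1, Grin2c and Grin2d the groups overlapped in each pairwise comparison. The WT groups had the higher mean and SD of Grin2d. Its highest values, 794 in WT-Flx 4 and 666 in WT-Veh 1, came from the libraries with the highest bulb scores (10.3 and 10.6).

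**Figure D2:**
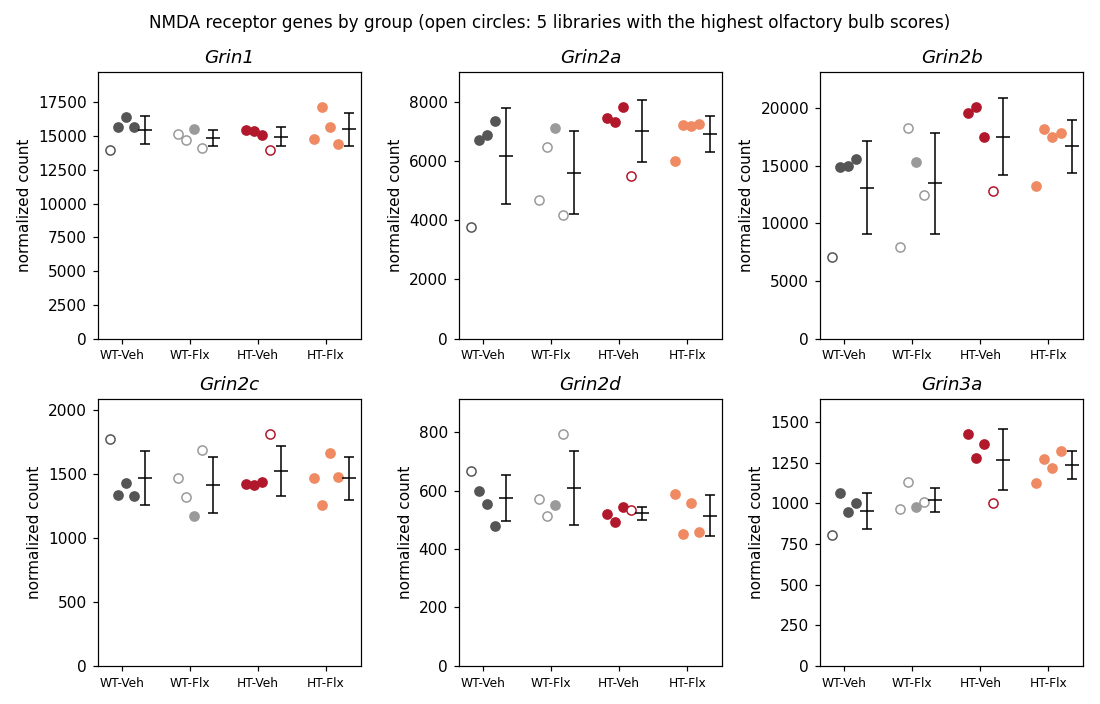
Normalized count of each NMDA receptor gene in the 16 mice, by group. Each circle is a mouse, in the order of replicates 1 to 4, open circles are the 5 libraries with the highest olfactory bulb scores, and bars are means with SD (n = 4). Grin3a lies above every WT mouse in 6 of the 8 HT mice, and the lowest Grin2b values are those of WT-Veh 1 and WT-Flx 1.

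In the mice given fluoxetine as pups, HT-Flx against WT-Flx, 0 of 6 genes passed again (0.0417% of all genes did), and no member was without overlap between the groups, as against 5.83% of all genes. The olfactory bulb markers differed between these groups, with 3 of 4 WT-Flx and 0 of 4 HT-Flx libraries among the 5 highest scores, and 8 of the 9 markers tested were lower in HT-Flx at a limma unadjusted p under 0.05 (median log2 change -2.43). The scores did not overlap, at 6.57 to 10.3 in WT-Flx and 5.68 to 6.46 in HT-Flx. A fit with the score as a covariate therefore cannot separate score from genotype in this comparison. Grin3a had normalized counts of 963, 1129, 978 and 1011 in WT-Flx. In HT-Flx it had 1123, 1275, 1216 and 1325. Of the HT-Flx mice, 3 lay above every WT-Flx mouse, and the remaining one lay just below the highest of them. The log2 change of Grin3a was 0.27 (SE 0.097, 95% interval 0.063 to 0.49, limma unadjusted p = 0.0153, adjusted p = 0.381), and 0.34 (SE 0.16, limma adjusted p = 0.9998) with the bulb score as a covariate. An unadjusted p under 0.05 was reached by 10.4% of all genes in this comparison.

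Grin2b had normalized counts of 7958, 18235, 15315 and 12441 in WT-Flx. In HT-Flx it had 13250, 18182, 17446 and 17852. The WT-Flx values were widely spread, from the second lowest of the 16 mice to a value above every HT-Flx mouse, and the log2 change was 0.36 (SE 0.21, limma adjusted p = 0.557), and 0.13 without WT-Flx 1. Grin2a had 4687, 6464, 7125 and 4163 in WT-Flx. In HT-Flx it had 6007, 7214, 7181 and 7265. The groups overlapped, with 3 HT-Flx mice above every WT-Flx mouse, and the log2 change was 0.33 (SE 0.16, limma adjusted p = 0.483). Grin2d differed by -0.23 (SE 0.15), Grin2c by 0.060 (SE 0.13) and Grin1 by 0.060 (SE 0.086), with limma adjusted p-values of 0.601, 0.892 and 0.834. With the bulb score as a covariate the change of Grin2a turned to -0.081 (SE 0.20) and that of Grin2d to 0.0030 (SE 0.24), and without WT-Flx 4 they were 0.20 and -0.095. Under that covariate Grin2b had 0.28 (SE 0.35), Grin2c 0.30 (SE 0.19) and Grin1 -0.019 (SE 0.14). Because the groups share no range of the score, these covariate estimates are extrapolations and their signs are not read as genotype effects.

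Taking both treatments, the 8 HT and 8 WT mice were compared in an additive fit. Again 0 of 6 genes passed, against 0.0398% of all genes, and 2 of 6, Grin3a and Grin2b, had an unadjusted p under 0.05, against 11.9% of all genes. The median log2 change of the 6 genes was 0.17, and that of all genes 0.0044. That median lay between Grin2c (0.057) and Grin2a (0.27), which had 0.17 and 0.054 with the bulb score as a covariate. It is therefore not read as a rise of the whole family. Grin3a averaged 1251 ± 136 normalized counts (SD, n = 8) in HT and 987 ± 93.9 in WT. Its log2 change was 0.34 (SE 0.077, 95% interval 0.18 to 0.50), a fold of 1.27, with a limma unadjusted p of 0.000344 and an adjusted p of 0.159, and its p was number 38 of 17567 genes in order of size. Of the 8 HT mice, 6 lay above every WT mouse, and 5 of the 8 WT mice lay below every HT mouse. An exact permutation test of Grin3a alone, two-sided and within each treatment, gave p = 0.00204 over 4900 arrangements, of which the smallest possible p was 0.000408. This test was added after the data were seen and is not corrected for the 6 genes, and the exact permutation p of the others was 0.0576 for Grin2b, 0.0820 for Grin2d, 0.10 for Grin2a, 0.516 for Grin2c and 0.865 for Grin1.

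The Grin3a difference was smaller with the bulb score as a covariate (log2 0.28, SE 0.079, limma adjusted p = 0.397) and larger in the libraries with few bulb markers. Among the 11 mice left without the 5 highest bulb scores, the 7 HT mice had 1123 to 1428 normalized counts and the 4 WT mice 946 to 1064. The groups did not overlap, which 0.929% of all genes shared in that direction. The log2 change was 0.40 (SE 0.067, 95% interval 0.26 to 0.54), with a limma adjusted p of 0.0951 where 0.0234% of all genes passed, and its p was number 6 of 17118 genes. The libraries left out held the lowest HT value, 1003 in HT-Veh 4, and the highest WT value, 1129 in WT-Flx 2. With these mice the groups overlapped. Since 3 of the 5 mice left out were WT-Flx, that group was represented by 1 mouse.

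Grin2b averaged 17088 ± 2694 in HT and 13293 ± 3912 in WT (SD, n = 8), a log2 change of 0.41 (SE 0.17, 95% interval 0.045 to 0.78, limma unadjusted p = 0.0297, adjusted p = 0.391). Its groups overlapped widely, with 2 HT mice above every WT mouse. In the 11 mice with low bulb scores the log2 change was 0.26 (SE 0.086, limma adjusted p = 0.584), and 6 of 7 HT mice lay above every WT mouse. With the bulb score as a covariate Grin2b had 0.21, Grin2a 0.054, Grin2c 0.17, Grin2d -0.096 and Grin1 -0.047. Grin2a had 0.27 (SE 0.13, limma adjusted p = 0.430) in all 16 mice and 0.056 in these 11. Grin2d had -0.18 (SE 0.094, limma adjusted p = 0.450) and -0.078, Grin2c 0.057 (SE 0.087) and 0.15, and Grin1 0.0079 (SE 0.052) and -0.038. The 7 markers of GABAergic neurons, which are known to carry GluN2D, summed to 18214 to 33901 normalized counts per WT mouse and 17662 to 23098 per HT mouse. Much of the sum was Gad1, which ranged from 6091 to 19576 over the 16 mice. The markers did not move together, with 1 higher and 2 lower in HT at a limma unadjusted p under 0.05. Their part in the Grin2d values was not tested.

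The level of long transcripts moved with Grin2b. Deviations of Grin2b from its 16-mouse mean were -1.06 in WT-Veh 1 and -0.88 in WT-Flx 1 on the log2 scale, the libraries where genes with long transcripts were lowest. Across all 349 genes with long transcripts, the median HT minus WT difference was 0.17 and 84.8% of them were higher in HT, while in the 11 mice with low bulb scores the median was 0.039. Of these genes, 4.58% had an HT minus WT difference at or above that of Grin2b. With the per-mouse difference between long and short transcripts as a covariate, a setting added after the data were seen, the HT minus WT log2 change of Grin2b was 0.087 (SE 0.072, limma adjusted p = 0.787). Under the same covariate Grin2a had 0.052 (SE 0.083) and Grin3a, with a transcript of 7.49 kb, 0.26 (SE 0.071, limma adjusted p = 0.343). Leaving out WT-Veh 1 and WT-Flx 1 gave log2 changes of 0.16 for Grin2b, 0.13 for Grin2a, 0.29 for Grin3a, 0.12 for Grin2c, -0.15 for Grin2d and -0.011 for Grin1.

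**Figure D3:**
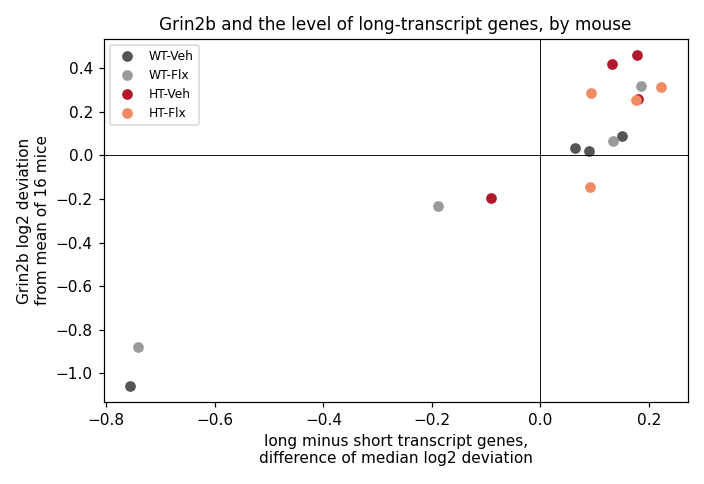
Log2 deviation of Grin2b from its mean of 16 mice against the difference between genes with long and short transcripts (median log2 deviation of genes of at least 10 kb less that of genes of at most 2 kb), with each point a mouse. WT-Veh 1 and WT-Flx 1 lie at the lower left, at -0.76 and -0.74 on the horizontal axis, and 12 mice lie between 0.064 and 0.22.

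Fluoxetine, given in early life, was compared at P120 within each genotype. In HT mice 0 of 6 genes passed in HT-Flx against HT-Veh, and 0% of all genes did, while an unadjusted p under 0.05 was reached by no member and by 3.07% of all genes. The groups overlapped for all 6 members, and 1.99% of all genes had no overlap. The log2 changes ran from -0.058 for Grin2b to 0.051 for Grin1. The 95% intervals were -0.10 to 0.21 for Grin1, -0.26 to 0.21 for Grin3a and -0.37 to 0.25 for Grin2b. They take the mice as independent, although the drug was given to dams, and the number of dams per group is not given in the labels. The intervals may therefore be too narrow. In WT mice, WT-Flx against WT-Veh, 0 of 6 genes passed, as did 0% of all genes, and 4.2% of all genes but no member had an unadjusted p under 0.05. No member was without overlap, against 2.89% of all genes. The log2 changes lay between -0.13 for Grin2a (SE 0.23) and 0.10 for Grin3a (SE 0.11). HT-Veh is the group tested against WT-Veh and the reference of HT-Flx, so its mice enter the 2 changes with opposite signs, and the values of Grin3a are only set side by side, 0.40 for HT-Veh against WT-Veh and -0.028 for HT-Flx against HT-Veh.

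Over both genotypes, the fluoxetine log2 change ran from -0.070 for Grin2a to 0.037 for Grin3a (0 of 6 passing, 0% of all genes, and 3.11% of all genes but no member with an unadjusted p under 0.05). The interaction, which asks whether the fluoxetine change differs between HT and WT, also had 0 of 6 passing and 0% of all genes, with 4.29% of all genes but no member under an unadjusted p of 0.05. Its estimate was -0.13 (SE 0.16, 95% interval -0.46 to 0.20) for Grin3a, -0.10 (SE 0.36) for Grin2b, 0.12 (SE 0.28) for Grin2a and 0.10 (SE 0.10) for Grin1. Every interaction interval of the 6 genes included 0, and the limma adjusted p was 0.998 for each.

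**Figure D4:**
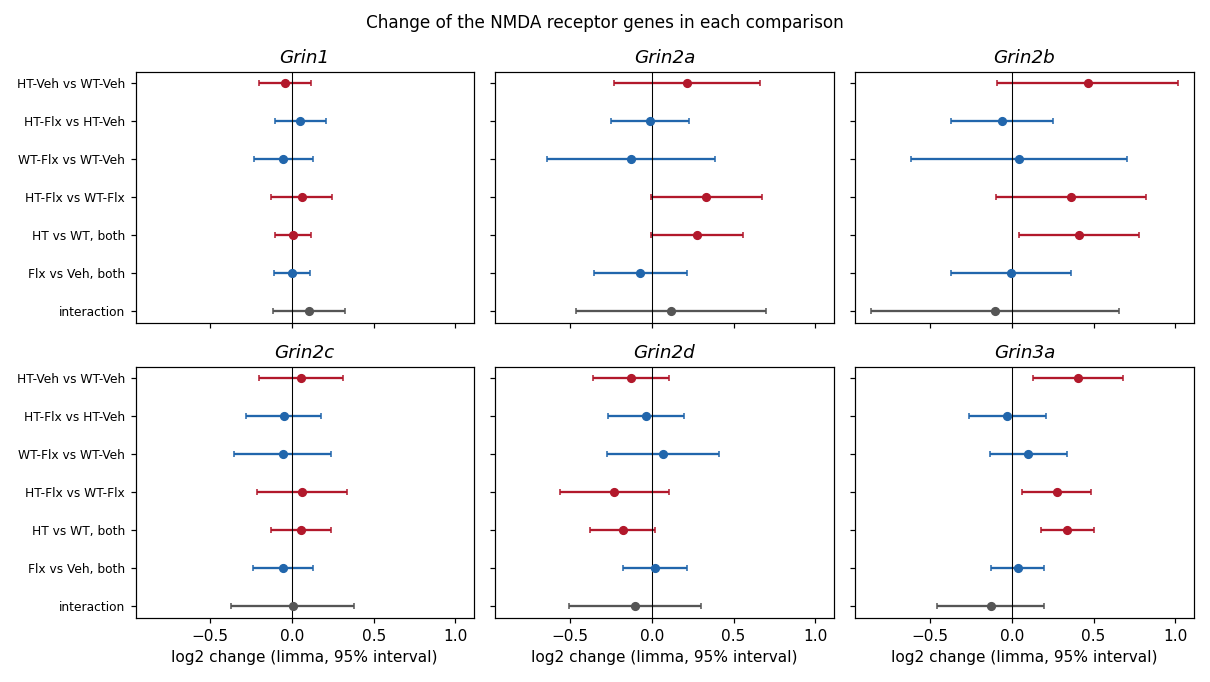
Log2 change of each NMDA receptor gene in 7 comparisons, from limma on log2(value + 1). Points are estimates and bars 95% intervals, with red for HT against WT, blue for Flx against Veh and grey for the interaction. Grin3a lies above 0 with its whole interval in the 3 comparisons of HT with WT, and the fluoxetine and interaction intervals of every member include 0.

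The bulb marker score moved with 3 of the 4 GluN2 genes. In a fit of all 16 mice added after the data were seen, Grin2a had a slope of -0.18 log2 units per unit of score (SE 0.026, limma adjusted p = 0.000372) and Grin2b one of -0.18 (SE 0.049, limma adjusted p = 0.0273). Grin2c had a positive slope of 0.095 (SE 0.023, limma adjusted p = 0.0127). Of all genes, 6.83% passed with a negative slope and 4.77% with a positive one. The slopes of Grin1 (-0.039), Grin3a (-0.060) and Grin2d (0.062) did not pass, with limma adjusted p-values of 0.110, 0.117 and 0.220. Without WT-Veh 1 none of the 3 passed, although the slope of Grin2a was -0.16 (limma adjusted p = 0.0623) and that of Grin2c 0.11 (limma adjusted p = 0.192), while that of Grin2b was -0.11 (limma adjusted p = 0.640). In bulk tissue fewer cells of a type and less RNA per cell cannot be told apart. The part of the bulb markers in the levels of these genes was not tested.

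**Figure D5:**
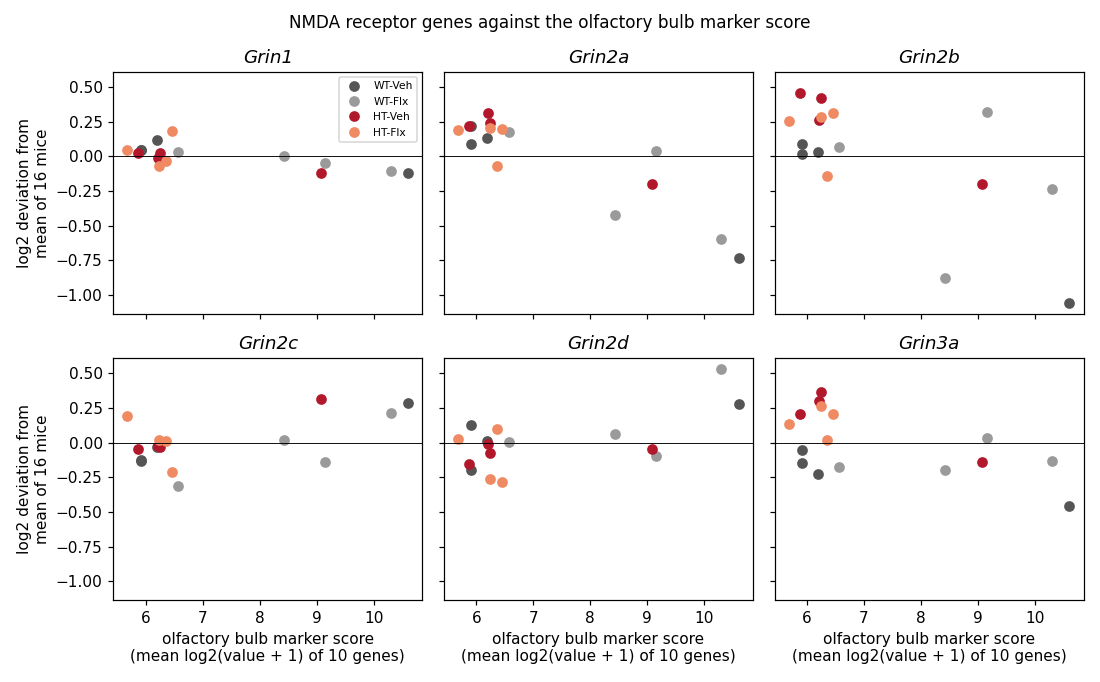
Log2 deviation of each NMDA receptor gene from its mean of 16 mice against the olfactory bulb marker score (mean log2(value + 1) of 10 genes), with each point a mouse coloured by group. In Grin2a the 5 libraries with scores of 8.43 and more are mostly below 0, in Grin2c WT-Veh 1, WT-Flx 4 and HT-Veh 4 are the highest, and in Grin3a HT mice lie above WT mice at the same low score.

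Members also moved with one another from mouse to mouse. Over 16 mice that share a normalization, deviations from the group means had a Pearson correlation of 0.87 between Grin2a and Grin2b and of -0.84 between Grin2a and Grin2c. In the 11 mice with low bulb scores these were 0.75 and -0.053. The relation of Grin2a with Grin2c was near 0 without the 5 libraries. That of Grin2a with Grin2b was still positive, but HT-Flx 1 stood far below its group in both genes (6007 and 13250). Among HT-Veh 1 to 3, mouse 3 was the highest in Grin2a (7837) and the lowest in Grin2b (17525). The correlation without HT-Flx 1 was not computed, so a relation across the other mice is not shown. The ratio of Grin2a to Grin2b was steadier than either gene in 3 of the 4 groups. The log2 ratio of their normalized counts was -1.06 ± 0.11 (SD, n = 4) for WT-Veh, -1.24 ± 0.38 for WT-Flx, -1.31 ± 0.14 for HT-Veh and -1.26 ± 0.084 for HT-Flx. HT-Veh mice had -1.40, -1.46, -1.16 and -1.22 and WT-Veh mice -0.90, -1.15, -1.12 and -1.08. All 4 HT-Veh mice lay below all 4 WT-Veh mice in this ratio, but HT-Veh 3 (-1.161) and WT-Veh 2 (-1.148) nearly met. The mice given fluoxetine differed, since WT-Flx 2 (-1.50) and WT-Flx 4 (-1.58) lay below every HT-Flx mouse. The ratio was not tested, and how often other gene pairs separate the groups was not counted.

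The genes whose deviations were most like those of a member were sought among 12040 protein-coding genes over the 16 mice. Grin1 was nearest to the potassium channel gene Kcnc1 (r = 0.93) and to Zfpm1 (0.91). The nearest to Grin2a were Trim37 (0.99) and the potassium channel gene Kcna2 (0.98), and to Grin2b Lrrc7, which encodes a postsynaptic scaffold (0.98), and Arhgef12 (0.97). In the 11 mice with low bulb scores these were 0.94 and 0.88 for Grin1, 0.85 and 0.84 for Grin2a and 0.75 and 0.75 for Grin2b. Grin2c was nearest to Mrpl24 (0.94) and Id1 (0.93), and Grin2d to Sparc (0.91) and Usf2 (0.90). For Grin3a the nearest were Sptbn1, a spectrin gene, and Cdk14, both at 0.86, and in the 11 mice 0.57 and 0.74.

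Genes whose products work at the receptor were read from 5 lists, in HT against WT over both treatments, where 0 genes of any list passed the limma adjusted p. Of the 10 scaffold genes, 3 had an unadjusted p under 0.05, all higher in HT, a direction in which 6.42% of all genes reached it. The median log2 change of the list was 0.11. The 3 genes were Dlg2 (0.28), Dlgap2 (0.33) and Homer1 (0.36), named after their values were seen. On the bulb score, 4 of the 10 scaffold genes had a negative slope past the limma adjusted p and 0 a positive one, among them Dlg2 (-0.13 per unit of score, limma adjusted p = 0.0168) and Dlgap2 (-0.17, limma adjusted p = 0.00160). Dlg4, which encodes PSD-95, had a log2 change of 0.073 (SE 0.055), and Dlg3, which encodes SAP102, had -0.080 (SE 0.050). Among the 15 signalling genes 2 were higher at an unadjusted p under 0.05 and 1 lower, against 6.42% and 5.44% of all genes, and the median was 0.040. The signalling genes below that p were the Ras activator Rasgrf2 (0.48), the nitric oxide synthase Nos1 (0.46) and the kinase Cdk5 (-0.15), again named after their values were seen. Rasgrf2 also had a negative slope on the bulb score (-0.13, limma adjusted p = 0.00638). Dlg2, Dlgap2, Homer1, Rasgrf2, Nos1 and Cdk5 were not refitted with the difference between long and short transcripts as a covariate. The part of that difference in their changes was not tested. Camk2b, a subunit of the kinase that binds GluN2B, had -0.016 (SE 0.049), and Ptpn5, a phosphatase acting on GluN2B, had 0.071 (SE 0.074).

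Of the 9 transport genes, 1 was higher at this unadjusted p, the endosomal sorting gene Snx27 (0.20), and the median was 0.099. Rph3a, which encodes a protein that holds GluN2A at the synapse, had 0.049 (SE 0.11). Of the 7 co-agonist genes tested, 1 was higher and 2 were lower, with a median of -0.080. Srr, which makes D-serine, was higher (0.20, SE 0.094, limma adjusted p = 0.414). Slc6a9, the glycine transporter that lowers glycine at synapses, was lower (-0.22, SE 0.088, limma adjusted p = 0.391), as was Phgdh, an enzyme of serine synthesis (-0.31, SE 0.071, limma adjusted p = 0.159). With the difference between long and short transcripts as a covariate, Srr had 0.051 and Slc6a9 -0.16, and with the bulb score as a covariate 0.092 and -0.13. Snx27, Phgdh and Slc17a6 were not refitted with these covariates. The slope of Srr on the bulb score was -0.092 (limma adjusted p = 0.0366). It was -0.060 without WT-Veh 1 (limma adjusted p = 0.647) and 0.085 without the 5 highest scores. The part of the bulb-rich WT libraries in the list counts was not tested. Of the 7 genes of glutamate supply and clearance, 1 was higher and 1 was lower, with a median of 0.048, and the lower one was the vesicular transporter gene Slc17a6 (-0.38), whose slope on the bulb score was 0.18 (limma adjusted p = 0.00104). Unadjusted p-values under 0.05 were reached by 6.42% of all genes in the higher and 5.44% in the lower direction, and the median of all genes was 0.0044.

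Other genes overlap the members on the genome. Grin2d shares ground with Kdelr1 on the opposite strand, at a mean normalized count of 1275, and with the antisense gene Gm45441, at 103. The others listed were low, with means of 8.37 for Grin1os opposite Grin1, 30.1 for Gm26653 opposite Grin2b and 7.89 for Ppp3r2 on the same strand as Grin3a. The library kit keeps strand, but whether the counting used it was not given in the sources used here, so the Grin2d values are uncertain to that extent.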

How the data were processed

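RNA of 16 mPFC samples was sequenced from TruSeq stranded mRNA libraries. The authors quantified transcripts with Salmon (version 1.1.0, quasi-mapping, GC bias correction) on GRCm38, used tximport for gene-level values and DESeq2 for normalization (version 1.30.1, per the submitters' processing notes). The deposited signal is a normalized count per gene and sample, not whole, so reads and depth were not recovered. Normalized totals were 92.8% to 104% of their mean. Of 18424 identifiers, 18411 matched a symbol in GENCODE (GRCm38).

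Groups and replicate numbers came from the sample titles. Values were tested as log2(value + 1) with limma (version 3.58.1, R 4.3.3; lmFit and eBayes with trend) over genes that reached 10 in at least 4 samples of the fit, two-sided, with Benjamini-Hochberg adjustment over all genes. Pairwise fits held the 2 groups compared. The genotype and treatment effects used 16 mice in an additive model, and the interaction used all 16. The code of the fit was also run on simulated data. The planted changes were larger than the main estimate of any member, and the simulated libraries had no shared bulb or length differences. That run therefore says nothing about changes of the size reported here. On the log2(value + 1) scale changes of low genes are understated.

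Members, partner lists (scaffolds, signalling, transport, co-agonist, glutamate) and marker lists were chosen with earlier results of these data known. Named partners were set as Dlg4, Dlg3, Camk2b, Ptpn5, Rph3a, Srr and Slc6a9 and any list gene passing (some list genes and sequences are not reported here), and like genes as the 2 with the highest correlation at a mean value of at least 100. Alternatives were a pseudocount of 8, no filter, a common upper quartile, all 4 groups in the fit, the replicate block, the bulb score as a covariate, and leaving out libraries. The bulb score slope, the 11-mouse comparison, the length covariate and the exact permutation tests were added after the data were seen.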

Additional observations from a re-analysis of the deposited data

Results flagged for a closer look

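Of 28 groups of 4 mice examined for a value far from the other 3, 6 held one, where chance gives about 1 in 20. In 2 of them the value was the olfactory bulb marker score, 10.6 in WT-Veh 1 against 5.91 to 6.19 in the other WT-Veh mice and 9.07 in HT-Veh 4 against 5.87 to 6.25 in the other HT-Veh mice. WT-Veh 1 also had a Grin2b normalized count of 7038, with 14849 to 15546 in its group. HT-Veh 4 had a Grin2c normalized count of 1812, with 1410 to 1433 in its group. HT-Flx 1 stood low in both Grin2a (6007, with 7181 to 7265 in the other HT-Flx mice) and Grin2b (13250, with 17446 to 18182), and its bulb score was 6.36, within the range of its group.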

How the results depend on the processing

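No member passed the limma adjusted p in any of the 7 comparisons with a pseudocount of 8, without the filter, with a common upper quartile or with any mouse left out, nor in the 4 pairwise comparisons with all 4 groups in the fit. Of 276 log2 changes of members under alternatives other than leaving out 1 mouse, 22 changed sign, and of 480 with 1 mouse left out 63 did. The cause was not tested. Grin3a kept its direction in HT against WT over both treatments in every setting tried, and its limma adjusted p was 0.0524 at the lowest, without WT-Veh 1 and HT-Veh 4, and 0.397 at the highest, with the bulb score as a covariate. Correlations of same-numbered mice ran from -0.31 to 0.42, a spread that cannot decide whether replicate numbers pair the mice. With the replicate block the HT minus WT log2 change of Grin3a was 0.34 (limma adjusted p = 0.123). That of Grin2b was 0.41, with an SE of 0.14 in place of 0.17 (limma adjusted p = 0.223). The replicate block changed no call of a member. Depth is unknown and 4 mice per group limit the precision.

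With the bulb score as a covariate 1 member, Grin2b, passed in HT-Veh against WT-Veh, where the share of all genes passing was not counted. The same covariate reversed log2 changes in HT-Flx against HT-Veh (Grin2c 0.0081), in WT-Flx against WT-Veh (Grin1 0.0040, Grin2a 0.14, Grin2d -0.046), in HT-Flx against WT-Flx (Grin1 -0.019, Grin2a -0.081, Grin2d 0.0030), in HT against WT (Grin1 -0.047, Camk2b 0.032, Rph3a -0.11), in Flx against Veh (Grin1 0.015, Grin2b 0.053, Grin2d -0.0054) and in the interaction (Grin2a -0.26, Grin2d 0.028). In HT-Flx against WT-Flx the scores of the groups did not overlap, so the covariate estimates there are extrapolations. A common upper quartile gave -0.0022 for Grin1 in HT against WT and -0.012 for Grin2c in the interaction. Without WT-Veh 1 and HT-Veh 4, Rph3a had -0.016 in HT against WT, Grin2c 0.037 and Grin3a -0.057 in Flx against Veh, and Grin2b 0.027 and Grin2c -0.0023 in the interaction. Without the 5 highest bulb scores, HT against WT gave Grin1 -0.038, Camk2b 0.033, Ptpn5 -0.070 and Rph3a -0.079, and the slopes on the score were 0.053 for Grin1, -0.26 for Grin2c, -0.11 for Grin2d and 0.029 for Grin3a. With the length covariate Grin1 had -0.029, Camk2b 0.034 and Rph3a -0.068, and without WT-Veh 1 and WT-Flx 1 they had -0.011, 0.022 and -0.039. The share of Grin2a among GluN2 genes was 26.5% with the exon union, and with the coding length Grin2b had 62.3%, Grin2c 7.76% and Grin2d 2.77%.

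Leaving out each mouse in turn gave log2 ranges that included both signs for these. In HT-Veh against WT-Veh they were -0.0039 to 0.33 for Grin2a and -0.033 to 0.15 for Grin2c. In HT-Flx against HT-Veh they were -0.13 to 0.055 for Grin2a, -0.20 to 0.049 for Grin2b, -0.12 to 0.036 for Grin2c, -0.10 to 0.025 for Grin2d and -0.14 to 0.033 for Grin3a. In WT-Flx against WT-Veh they were -0.35 to 0.0040 for Grin2a, -0.23 to 0.28 for Grin2b, -0.15 to 0.038 for Grin2c and -0.065 to 0.14 for Grin2d, and in HT-Flx against WT-Flx -0.026 to 0.15 for Grin2c. In HT against WT they were -0.019 to 0.027 for Grin1, -0.033 to 0.0079 for Camk2b and -0.049 to 0.083 for Rph3a. In Flx against Veh they were -0.028 to 0.018 for Grin1, -0.14 to 0.097 for Grin2b, -0.048 to 0.049 for Grin2d and -0.0083 to 0.070 for Grin3a. In the interaction they were -0.016 to 0.34 for Grin2a, -0.34 to 0.17 for Grin2b, -0.090 to 0.095 for Grin2c and -0.18 to 0.032 for Grin2d.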
